A study of Mus musculus with 10 samples.

Results

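Slc8a1 encodes the cardiac sodium-calcium exchanger, and its locus held 24 of the 10010 regions listed as changed in chromatin accessibility between Tbx5G125R and Control atrial cardiomyocyte nuclei. A region belonged to the locus if it overlapped the RefSeq span of Slc8a1 in mm10, or if it lay outside any protein-coding span with Slc8a1 as the nearest gene within 100 kb. All 24 were chosen by the first criterion, and all 24 were listed lost, that is, less accessible in Tbx5G125R mice. Of all regions in the table, 11.6% were listed lost. The locus was picked because of these listed differences, so the differences between the genotypes given here describe the regions and were not tested again.

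ATAC-seq, which counts the places where a transposase can cut open chromatin, was performed on nuclei of mice between 8 and 12 weeks of age. Left and right atria of a single mouse were pooled and nuclei carrying PCM1, a protein found on cardiomyocyte nuclei, were sorted. Tbx5G125R mice carried 1 germline copy of the substitution G125R in the transcription factor Tbx5 beside a normal copy (4 animals, 4 libraries). The other group was labelled Control without further detail (4 animals, 6 libraries, of which Control animals 1 and 3 gave 2 each). Strain, sex and litter of these animals were not given in the sources used here, and both atria share 1 library, so a change in 1 atrium and a smaller change in both cannot be told apart.

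The exchanger is a membrane protein of the heart muscle cell that carries calcium out of the cell after each beat in exchange for sodium entering it. It works beside the L-type channel, through which calcium enters, and the ryanodine receptor and calcium pump of the sarcoplasmic reticulum, which release and take up the stored calcium. Tbx5 is a T-box factor that binds DNA and regulates genes of atrial rhythm. Accessible stretches inside a long gene can be regulatory elements of that gene or of another.

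The summed counts per animal over the whole table were between 1716962 and 2414261 in Tbx5G125R animals and between 630392 and 2776475 in Control animals. Control animals 2 and 4, with 1 library each, were the shallowest, at 630392 and 1134355. All 6 cardiomyocyte marker genes examined, among them Tnnt2, Myh6 and Myl7, had listed regions, 26 in total and all gained. Of 11 marker genes of fibroblasts, endothelium, smooth muscle and leukocytes, 5 had listed regions, 14 in total and all gained. The table lists changed regions alone, so these counts do not give the makeup of the sorted nuclei, and a smaller share of nuclei open at a region cannot be told apart from less opening in each nucleus.

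The 24 regions were spread unevenly over the gene, with most of them toward the middle and far side of the span. Slc8a1 (gene identifier 20541) lies on the minus strand of chromosome 17, from 81373105 to 81738387, a span of 365 kb in which RefSeq places no other gene. The regions began 7.4 kb downstream of the gene start and ended 82.4 kb before the far end of the span (81455501 to 81731000). Of the 24, 2 were centred in the first 100 kb from the start, 10 between 100 and 200 kb and 12 between 200 and 300 kb. Of all 24, 18 were packed between 178.5 and 282.6 kb from the start, with a median gap of 4.5 kb between neighbours over the locus and a longest gap of 66.8 kb. They were mostly short. At 500 bp, the shortest length in the table, were 17 of the 24 regions (70.8%), against 56.6% of all 1164 lost regions, and together the 24 covered 14750 bp, or 4.04% of the gene. Exons and introns were not told apart here.

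No listed region overlapped the start of the gene. RefSeq gives 21 transcripts for the gene, and only the outermost start was examined. A table of changed regions does not show whether this start was accessible. The 250 bases before it, where no change was listed, are shown (RefSeq, GRCm38.p6, chromosome 17, 81738388 to 81738637, minus strand, 5′ to 3′, with the GATA match in capitals).
Slc8a1 promoter: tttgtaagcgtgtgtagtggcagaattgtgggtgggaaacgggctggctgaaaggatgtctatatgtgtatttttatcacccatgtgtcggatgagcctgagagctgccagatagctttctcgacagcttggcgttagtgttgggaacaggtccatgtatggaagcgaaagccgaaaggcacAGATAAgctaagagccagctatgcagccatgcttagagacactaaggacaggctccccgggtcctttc
This stretch was 50.4% G and C and held 8 CpG pairs, against medians of 55.6% and 10 over the same 250 bases of 21262 protein-coding genes. The GATA motif AGATAA matched once, 68 bases before the start on the strand shown, and 8.81% of those promoters held it on either strand. The T-box motif AGGTGT, found in 11% of promoters, the MEF2 motif (3.06%), the GC box GGGCGG bound by SP and KLF factors (42.6%) and the CACCC box CCACACCC of KLF factors (3.32%) had no match on either strand. Only these set patterns were searched, and the shorter run CACCC does occur in the stretch shown.

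At every one of the 24 regions the mean scaled count was lower in Tbx5G125R than in Control animals. A scaled count is the number of reads in a region per library, brought to a common scale as described under processing. The edgeR log2 fold changes (Tbx5G125R over Control) lay between -1.59 and -0.89 with a median of -1.24, which is 0.424 of the Control level. Over all 1164 lost regions the median was -0.97, and over the whole table, most of which was gained, it was 0.72. Of the 24, 18 (75.0%) had a log2 fold change of -1 or below, against 44.8% of all lost regions and 5.21% of the table. Among the lost regions ordered by fold change, 8 of the 24 (33.3%) fell within the lowest 116, the lowest 10% of the list. The members were sites of low coverage, with a median Control mean of 31.6 scaled counts, against 52.0 over all lost regions. The 567 other lost regions with a Control mean between 25.1 and 52.5 had a median log2 fold change of -1.07.

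**Figure D1:**
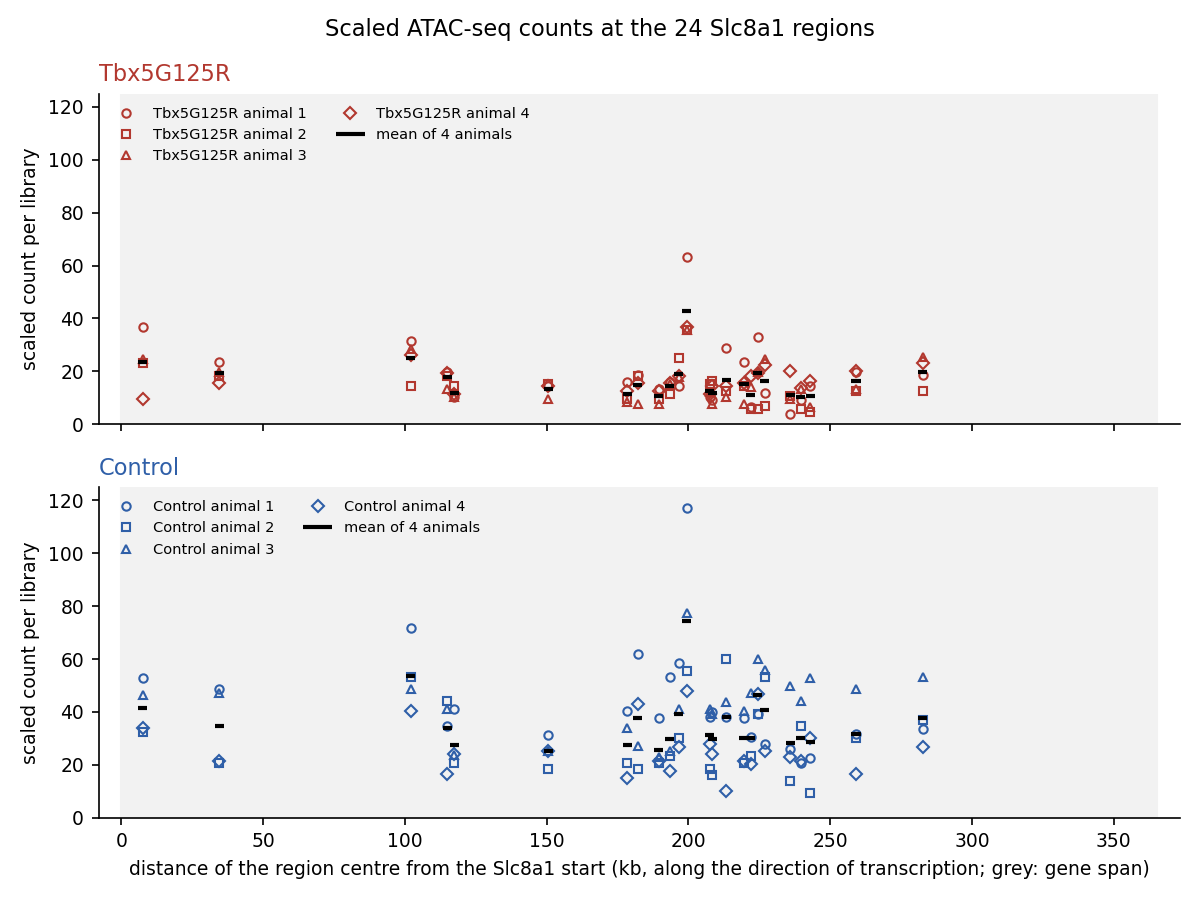
Scaled counts of the 24 Slc8a1 regions in each of 4 Tbx5G125R animals (upper panel, red) and 4 Control animals (lower panel, blue), plotted against the distance of the region from the gene start in kb, with the mean of the 4 animals as a black bar. Means lay between 10.4 and 42.9 in Tbx5G125R and between 25.1 and 74.5 in Control animals, and the region 199.4 kb from the start was the highest in both.

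Summed over the locus, scaled counts were 468, 337, 362 and 418 in Tbx5G125R animals 1 to 4, against 1036, 716, 1038 and 627 in Control animals 1 to 4. Every Control animal lay above every Tbx5G125R animal, and the Control animals were spread more widely, with 1 and 3 well above 2 and 4. The means were 396 ± 58.5 and 854 ± 214 (SD, n = 4 each), a log2 ratio of -1.11. Before scaling the 24 regions held 350 to 432 reads per Tbx5G125R animal and 309 to 2040 per Control animal, so the precision of any single region is low.

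The size of the difference depended on which Control animals were used. This comparison was added after seeing the data and splits the Control animals by the number of libraries the labels give them. Against Control animals 1 and 3, with 2 libraries each, the log2 ratio of the sums was -1.39, and against Control animals 2 and 4, with 1 library each, it was -0.76. Over the 1140 other lost regions the same ratios were -0.91 and -0.91. At all 24 Slc8a1 regions Control animals 1 and 3 both exceeded every Tbx5G125R animal, as they did at 96.9% of the other lost regions. Control animal 2 or 4 was the lowest Control at 22 of 24 (91.7%), against 65.2% of the other lost regions. Control animals 2 and 4 also had the lowest summed counts over the table. Taken by first library, the scale factor, which follows depth, was 0.931, 0.518, 1.23 and 0.948 in Control animals 1 to 4. The scaled counts of these libraries summed over the locus were 1025, 716, 1005 and 627. The part of depth in the lower values of Control animals 2 and 4 was not tested.

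The groups did not overlap at 13 of the 24 regions (54.2%), where the highest Tbx5G125R animal was below the lowest Control animal. Of the table, 8.46% of regions met this condition in that direction, and of all lost regions 72.8% did. Among the 567 other lost regions of like Control level the share was 64.4%. At each of the 11 that overlapped, the lowest Control animal was 2 or 4. With no scaling between libraries 1 of the 24 regions did not overlap, and on a scale that sets each animal to the median of the table, 22 of the 24 did not, so that this count follows the scale. All 24 were called lower by edgeR, as were all regions listed lost, and 10 with no scaling between libraries, where 2.16% of the table was called lower. As a share of all counts in lost regions, which needs no scale, Slc8a1 took 0.979%, 0.822%, 0.795% and 1.01% in Tbx5G125R animals 1 to 4, against 1.18%, 0.814%, 1.32% and 0.812% in Control animals 1 to 4. The shares overlapped, with Control animals 2 and 4 among the Tbx5G125R animals. The locus took a smaller share in each Tbx5G125R animal than in Control animals 1 and 3, while Control animals 2 and 4 were as low as Tbx5G125R animals 2 and 3.

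The 4 largest fold changes lay toward the far side of the cluster, between 222.0 and 242.9 kb from the start. The regions at 182.1, 207.5 and 208.4 kb came close, at -1.41 each. This placement leaned on Control animal 3. Without it the 4 log2 fold changes were -1.15, -0.95, -1.20 and -1.08 by distance, against a median of -1.09 over the 24. At the region of greatest change (81495251 to 81495750), scaled counts were 14.5, 4.82, 6.59 and 16.5 in Tbx5G125R animals 1 to 4, against 22.6, 9.27, 52.9 and 30.3 in Control animals 1 to 4. Control animal 3 stood far above all others and Control animal 2 lay among the Tbx5G125R animals, so the groups overlapped. The log2 fold change was -1.59 ± 0.43 (SE), with a range of -1.93 to -1.08 when single animals were left out. The counts behind it were small, with 5 reads in Tbx5G125R animal 2 and 4 in Control animal 2.

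The neighbouring region 239.6 kb from the start (81498251 to 81499250), 1000 bp long, had 9.23, 5.79, 13.2 and 13.6 scaled counts in Tbx5G125R animals 1 to 4, against 20.8, 34.7, 44.3 and 21.5 in Control animals 1 to 4. Here all Control animals were above all Tbx5G125R animals, and Control animal 3 was again the highest. Its log2 fold change was -1.53 ± 0.38 (SE). The region 222.0 kb from the start (81516001 to 81516750) had 6.59, 5.79, 14.1 and 18.4 in Tbx5G125R animals 1 to 4, against 30.7, 23.2, 47.3 and 20.2 in Control animals 1 to 4. The groups were separate by a narrow margin, between Tbx5G125R animal 4 and Control animal 4, and the log2 fold change was -1.48 ± 0.38 (SE). The region at 235.9 kb (81502251 to 81502750) had 3.95, 10.6, 9.42 and 20.3 in Tbx5G125R animals 1 to 4, against 26.1, 13.9, 49.9 and 22.8 in Control animals 1 to 4. Tbx5G125R animal 4 exceeded Control animal 2, and Control animal 3 was the highest, with a log2 fold change of -1.42 ± 0.41 (SE).

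Of the 4 regions with the highest Control level, 3 had fold changes smaller in size than the median of the 24. The strongest site of the locus was 199.4 kb from the start (81538751 to 81539250), with 63.3, 35.7, 35.8 and 36.8 in Tbx5G125R animals 1 to 4, against 117, 55.6, 77.3 and 48.0 in Control animals 1 to 4. Animal 1 was the highest of each genotype, and Tbx5G125R animal 1 exceeded Control animals 2 and 4, so the groups overlapped. The log2 fold change, -0.89 ± 0.25 (SE), was the smallest of the 24, and it was -0.56 without Control animal 1 and -1.12 without Tbx5G125R animal 1. The region at 102.0 kb (81636001 to 81636750) had 31.6, 14.5, 28.3 and 26.1 in Tbx5G125R animals 1 to 4, against 71.8, 53.3, 48.8 and 40.5 in Control animals 1 to 4. The groups were separate there, with a log2 fold change of -1.12 ± 0.27 (SE). The longest of the regions, 1500 bp at 224.4 kb (81513251 to 81514750), had 33.0, 5.79, 19.8 and 19.4 in Tbx5G125R animals 1 to 4, against 39.4, 39.4, 60.0 and 46.8 in Control animals 1 to 4. The groups were separate again, although Tbx5G125R animal 1 came close to the Control animals and Tbx5G125R animal 2 was far below (log2 fold change -1.32 ± 0.33, SE).

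The outermost regions had fold changes below the median in size. Nearest to the start (81730501 to 81731000, 7.6 kb), scaled counts were 36.9, 23.1, 24.5 and 9.68 in Tbx5G125R animals 1 to 4, against 52.7, 32.4, 46.3 and 34.1 in Control animals 1 to 4. Tbx5G125R animal 1 exceeded Control animals 2 and 4, and the log2 fold change was -0.90 ± 0.31 (SE). At the other end of the cluster (81455501 to 81456000, 282.6 kb), scaled counts were 18.5, 12.5, 25.4 and 23.2 in Tbx5G125R animals 1 to 4, against 33.6, 37.1, 53.4 and 26.6 in Control animals 1 to 4. All Control animals were above all Tbx5G125R animals, with Control animal 4 just above Tbx5G125R animal 3, and the log2 fold change was -0.95 ± 0.31 (SE). The 15 regions not given singly had Tbx5G125R means of 10.7 to 19.3 and Control means of 25.1 to 40.6 scaled counts, with log2 fold changes between -1.41 and -0.95.

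Animals of 1 genotype differed from each other along the gene. The 8 regions farther than 220 kb from the start summed to 117, 64.6, 126 and 154 scaled counts in Tbx5G125R animals 1 to 4, against 233, 241, 413 and 210 in Control animals 1 to 4. Control animal 3 stood alone at the top and the groups did not overlap. The 16 nearer regions summed to 351, 273, 235 and 264 in Tbx5G125R animals 1 to 4, against 803, 475, 625 and 417 in Control animals 1 to 4. There Control animal 1 was the highest, and the groups again did not overlap. The split at 220 kb was set after seeing the values. The log2 ratios of the group means were -1.25 for the farther and -1.05 for the nearer regions.

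**Figure D2:**
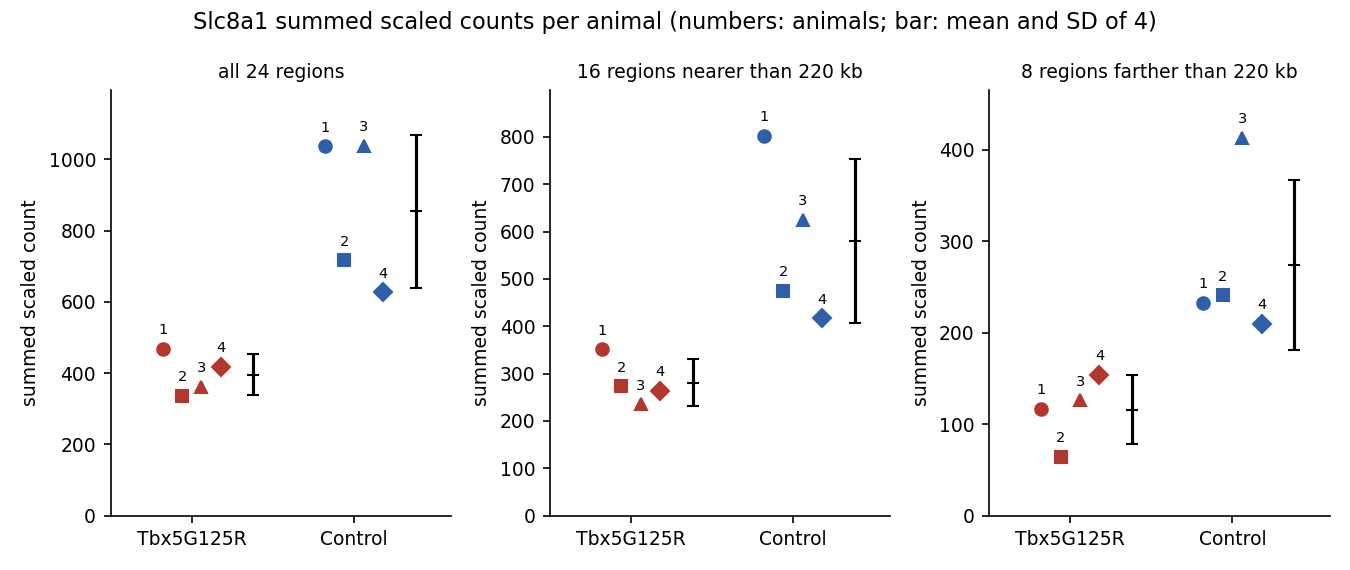
Summed scaled counts per animal at all 24 Slc8a1 regions, at the 16 nearer and at the 8 farther than 220 kb from the start, for Tbx5G125R (red) and Control (blue), with animal numbers above the points and the mean and SD of 4 animals as a black bar. Control animals 1 and 3 are level in the full sum (1036 and 1038), but animal 1 leads among the nearer regions and animal 3 among the farther ones.

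The balance between the sets, which needs no scale between libraries, varied among animals of each genotype. Because the split was drawn after Control animal 3 was seen to be high beyond it, these values are a description. The log2 ratio of farther to nearer sums was -1.58 ± 0.18, -2.08 ± 0.20, -0.90 ± 0.15 and -0.78 ± 0.14 in Tbx5G125R animals 1 to 4 (counting SE), against -1.79 ± 0.08, -0.98 ± 0.17, -0.60 ± 0.07 and -0.99 ± 0.14 in Control animals 1 to 4. The genotypes overlapped widely. Animals 1 and 2 of the Tbx5G125R group and animal 1 of the Control group had the fewest counts on the far side, relative to the near side. The repeat libraries of Control animal 1 gave -1.79 and -1.79, and those of Control animal 3 gave -0.73 and -0.47, so the gap between these animals was present in each library.

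Between Control animals 1 and 3 the ratio changed sign along the gene. At the 6 regions between 178.5 and 199.4 kb from the start, Control animal 3 was below Control animal 1 at all 6, with log2 ratios of -1.20 to -0.25. At the 8 regions beyond 220 kb, Control animal 3 was above at all 8, with log2 ratios of 0.61 to 1.23. Compared library by library, 11 of 12 and 15 of 16 ratios had the same sign. Neither stretch was planned, and each library is part of the sums that show these signs. Much of this sameness therefore follows from the choice of stretches. The regions outside both stretches had log2 ratios of -0.78 to 0.25. With distance from the start the log2 ratio had a Pearson r of 0.465 over the 24 regions. Over the 24 regions the log2 ratios from the first and from the second libraries had a Pearson r of 0.719, as a description over regions that share animals and lie side by side. The SD of the log2 ratio over the 24 regions was 0.695, against a median counting SE of 0.24 for a single region. With a pseudocount of 0.5 it was 0.684, against 0.541 over the 567 other lost regions of like level.

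**Figure D3:**
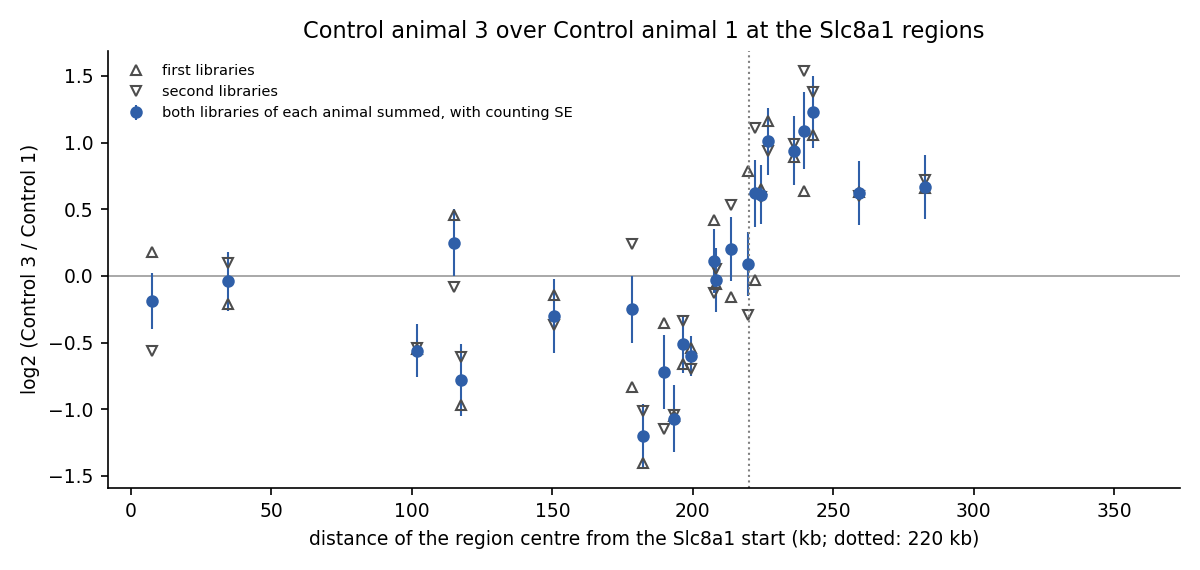
Log2 ratio of Control animal 3 over Control animal 1 at each Slc8a1 region against the distance from the gene start in kb, with filled circles for summed libraries (bars, counting SE) and triangles for the first and second libraries alone. The 6 regions between 178.5 and 199.4 kb lie below 0 and the 8 regions beyond the dotted line at 220 kb lie above it.

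Spread between animals was wider at the locus than at lost regions of like Control coverage. The median SD of log2 scaled counts over the 24 regions was 0.467 between Tbx5G125R animals and 0.549 between Control animals. Over the 567 other lost regions of like level the medians were 0.419 and 0.385. Those regions were matched on the Control mean alone. Their median log2 fold change was -1.07, against -1.24 at the locus, so counts in Tbx5G125R animals were not matched. The 2 libraries of Control animal 1 differed at the 24 regions by a chi-square per degree of freedom of 1.38 and those of Control animal 3 by 1.73. Control animals 1 and 3 differed from each other by 8.26, against 1.78 to 3.10 for the other pairs of Control animals and 1.20 to 2.19 for pairs of Tbx5G125R animals. Deeper libraries raise this statistic for an equal difference, and Control animals 1 and 3 were the deepest at the locus.

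Slc8a1 had more lost regions than any other of the 738 protein-coding genes with a lost region, 614 of which had just 1. It held 2.06% of all lost regions, at 6.57 per 100 kb of span. Zbtb16, a zinc-finger transcription factor gene, had 18 lost and 2 gained regions in 184 kb (9.76 lost per 100 kb), so it was the denser. Cacna1c, which encodes the pore of the main cardiac L-type calcium channel, had 13 lost and 1 gained in 610 kb (2.13 per 100 kb). Pdlim5, a gene of a Z-disc protein, had 11 lost and 1 gained in 156 kb (7.05 per 100 kb). Ryr2, the ryanodine receptor gene, had 10 lost and 7 gained in 554 kb. The median log2 fold change of lost regions was -1.24 at Slc8a1, -1.33 at Zbtb16, -1.18 at Cacna1c, -1.13 at Pdlim5 and -0.91 at Ryr2. A lost region within the span was found at 102 of the 556 protein-coding genes spanning 300 kb or more (18.3%), against 2.26% of all 21896 protein-coding genes, and 5 of the 7 genes with 9 or more lost regions, Slc8a1 among them, were that long. The counts per gene thus moved with span, and the part of span in the count at Slc8a1 was not tested.

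**Figure D4:**
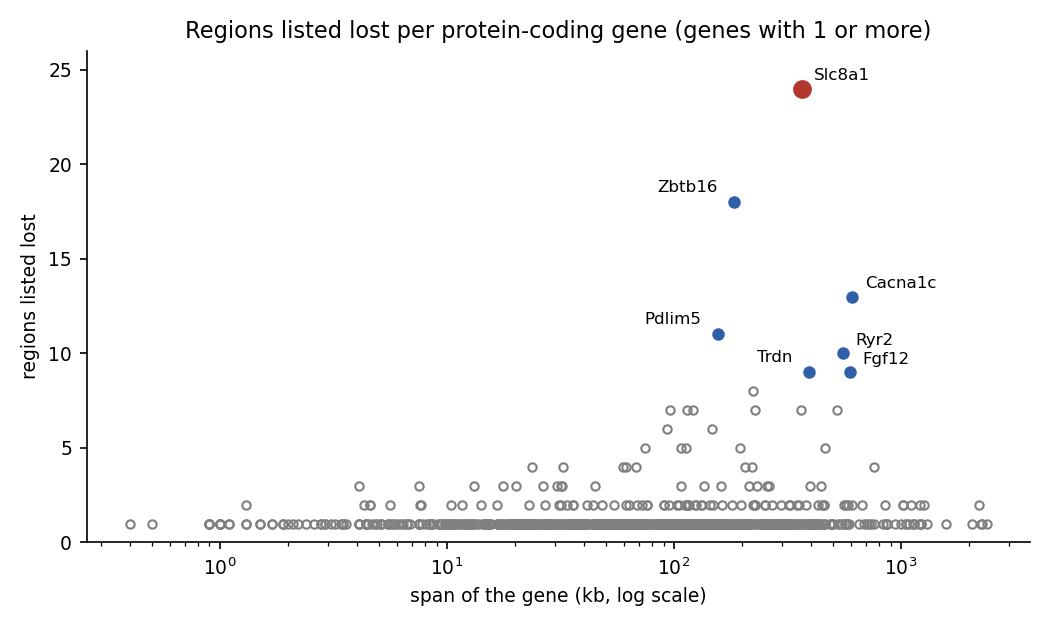
Number of regions listed lost per protein-coding gene against the span of the gene in kb (log scale), for genes with at least 1, with the 7 genes of 9 or more named. Slc8a1 (red) has 24 in 365 kb, and Zbtb16 follows with 18 in 184 kb.

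No region was listed close to the gene on either side. Beyond the far end of Slc8a1 the next listed region was 451 kb away (80921751 to 80922250, nearest gene Tmem178) and was gained (log2 fold change 1.10 ± 0.32, SE). Before the start the next was 1410 kb away (83148251 to 83149000, nearest gene Pkdcc, which encodes a secreted kinase) and was gained as well (1.19 ± 0.23, SE). Pkdcc, the next protein-coding gene on that side, had 3 gained and 1 lost region, the lost one at -1.13. On the other side Thumpd2 had no listed region and Tmem178 had 1. The membership of the locus was therefore the same 24 with a limit of 10 kb, 500 kb or overlap alone.

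Among other genes of calcium and sodium handling, 32 of 40 lost regions lay at 3 genes, Cacna1c, Ryr2 and Trdn. The list held 31 such genes besides Slc8a1, of which 21 had listed regions, 43 gained and 40 lost (48.2% lost, against 11.6% of the table). The genes of the L-type channel and the sarcoplasmic reticulum held 67 of these 83 regions, 29 gained and 38 lost. Of the other exchangers, Slc8a3 had 3 gained regions (log2 fold changes of 1.17 to 1.80), and Slc8a2 and Slc8b1, the mitochondrial exchanger, had none listed. Of the genes of the sodium pump, which maintains the gradient on which the exchanger runs, the subunit gene Atp1b1 had 3 gained regions and Fxyd1, a regulator of the pump, had 1. Atp2b1, a calcium pump of the cell membrane, had 3 gained.

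Calcium entry genes had 16 lost and 5 gained regions, with 13 of the losses at Cacna1c and 2 at Cacna1d, another pore subunit (-1.55 and -1.23). Of the accessory subunits, Cacnb2 had 2 gained, and Cacna2d1 had 2 gained and 1 lost (-1.19). Genes of the sarcoplasmic reticulum had 22 lost and 24 gained. Trdn, which encodes triadin, a partner of the ryanodine receptor, had 9 lost and none gained, with log2 fold changes between -1.23 and -0.66. Pln, the inhibitor of the calcium pump, had 1 lost (-1.27), and Casq2, the calcium store protein, 1 lost (-0.96). Atp2a2, the pump itself, had 8 gained, and Sln, its atrial inhibitor, 4 gained. Jph2, which holds the membranes together, had 2 gained and 1 lost, and Asph (junctin), Hrc and Calr (calreticulin), whose proteins bind or help to release stored calcium, had 1 gained each. The calmodulin genes Calm2 and Calm3 had 3 gained in all, and Camk2d, a calmodulin kinase, 2 lost and 1 gained. No region was listed at the anchoring and membrane genes Ank2, Bin1 and Cav3, nor at Atp2b2, Atp2b4, Fkbp1b, Sri and S100a1.

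**Figure D5:**
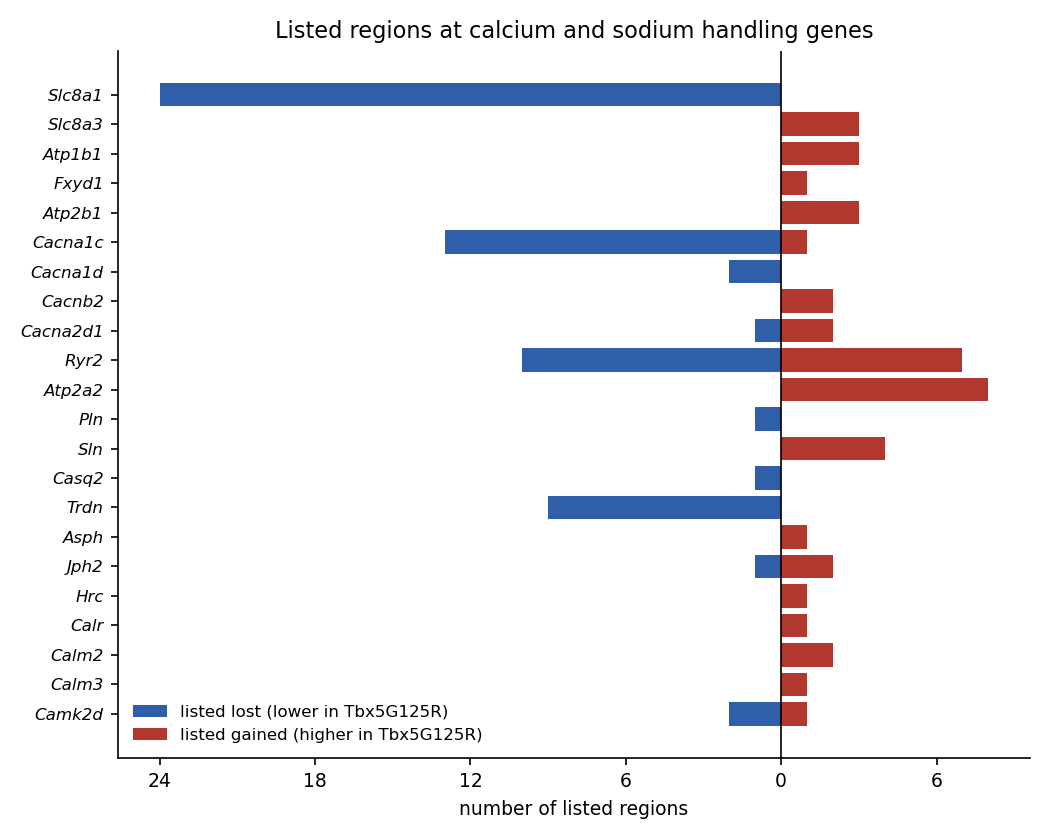
Number of regions listed lost (blue, to the left) and gained (red, to the right) in Tbx5G125R at Slc8a1 and the 21 other calcium and sodium handling genes with listed regions. Slc8a1 has 24 lost and none gained, Cacna1c 13 lost and 1 gained, Ryr2 10 and 7, and Trdn 9 and none.

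The animal-to-animal differences of Slc8a1 within a genotype were compared with those of other genes. Deviations of its log2 summed scaled counts from the genotype mean were 0.25, -0.22, -0.12 and 0.09 in Tbx5G125R animals 1 to 4, and 0.31, -0.22, 0.32 and -0.41 in Control animals 1 to 4. Among 786 other genes with at least 3 regions, the median Pearson r with these deviations over 8 animals was -0.0721, and 16 genes exceeded 0.8. How many of 786 would exceed 0.8 by chance over so few points was not tested. Among the 5 highest were Fhad1 (r = 0.945), Tacc2 (r = 0.920), Dpp4 (r = 0.919) and Trdn (r = 0.908). Dpp4, which encodes a membrane peptidase, had 3 gained regions and no lost one, while Trdn and Tacc2 had lost regions alone. The 8 points share the depth and scale of each library, and without scaling between libraries the median r over all genes was 0.828. Cacna1c had an r of 0.813 and Ryr2 of 0.628. The summed counts of all other lost regions had an r of 0.298 with those of Slc8a1.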

How the data were processed

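ATAC-seq was analysed for 8 mice (4 Tbx5G125R and 4 Control animals, 10 libraries). Processing notes of the submitters list BWA, bedtools, DESeq2 (no versions) and the build mm10. Treatment of duplicates and the transposase shift are not given in the sources used here. The authors deposited 1 table of 10010 regions they called different, made by joining significant 500 bp bins. The number listed gained equals that in the paper, while the 1164 listed lost exceed the paper's number of sites with decreased accessibility. The reason was not examined. Per library it holds a read count, in whole numbers for 6 libraries. In the other 4 the deposited values are whole numbers too, save 26 zeros written as 0.1, which were rounded to 0. Those 4 columns were handled as estimated counts for this reason alone. The table also holds a signal per genotype (the authors' geometric means, not used), and a log2 fold change and an adjusted p-value computed by the authors. Whether a count covers the joined region or 1 bin is not stated. Regions not listed were not analysed here.

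The members, gene lists and tests were chosen with earlier results of these data known. Repeat libraries of Control animals 1 and 3 were added together. Libraries were scaled within a genotype by the median ratio over all regions. Because most listed regions were gained, 1 offset between the genotypes (0.29 on the log2 scale, 1.22-fold) was set so that shrunken fold changes came closest to the deposited log2 values. No other use was made of these, and every result here leans on the authors' scale to that extent. Fold changes and SE came from edgeR 4.0.16 (glmQLFit on all 10010 regions, tested on simulated data). All 10010 regions passed edgeR at an adjusted p of 0.05, having been selected for their difference, so no p is given. Alternatives used limma 3.58.1 (log2 with pseudocounts of 0.1, 1 and 5), DESeq2 1.42.0, other scales, a mean count of at least 20, single libraries, single animals left out and a replicate block. Regions given singly were the 4 of largest fold change, the 4 of highest Control level and those nearest each end of the gene. Other genes named were the 5 with the most lost regions, the 5 most alike between animals, the neighbours and listed members of the pathway list. Some genes that these rules select are not reported here. Counting errors cover the sampling of reads alone. Gene spans and the promoter came from RefSeq, and no genome was used.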

Additional observations from a re-analysis of the deposited data

Results flagged for a closer look

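The 60 sets of 4 animals examined were each region, and sums and other summaries of the same regions, in each genotype. In 5 of them 1 animal lay apart from the other 3 by Dixon's criterion for an outlying value at the 95% level. Chance gives about 1 in 20 for independent sets, but these sets share reads and animals. Of the 5, 3 were Control animals: animal 1 at the regions 117.4 kb (41.1 scaled counts) and 189.6 kb (37.6) from the start, and animal 3 in the sum of the 8 regions farther than 220 kb (413). That set was drawn after animal 3 was seen to be high there, so its place in the count of 5 follows from the choice. In Tbx5G125R, animal 3 was low at the region 150.6 kb from the start (9.42) and animal 1 was high at the strongest region, 199.4 kb from the start (63.3).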

How the results depend on the processing

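All 24 Slc8a1 regions were lower in Tbx5G125R under each of the 22 alternatives. The median log2 fold change of -1.24 depended on the scale: it was -0.90 with no scaling between libraries, -1.93 with each animal scaled to its median over the table, -1.95 with TMM factors and -1.93 with DESeq2 size factors, scales that put the median of all regions at 1.06 (no scaling) and 0.03 (table median). The log2 ratio of summed counts was -1.80 with the table median, and the regions without overlap numbered 1 with no scaling and 22 with the table median. By edgeR 24 regions were called lower, and 10 with no scaling, where 2.16% of the table was. With the deeper Control animals 1 and 3 alone, a choice made after seeing the data, 24 regions did not overlap and the ratio was -1.39. With Control animals 2 and 4 alone it was -0.76. Leaving out 1 animal at a time gave medians of -1.33 to -1.03, ratios of -1.23 to -1.0, 22 to 24 calls and 13 to 18 regions without overlap. The replicate block gave a median of -1.17 with 24 calls, and the replicate numbers did not pair the animals, with correlations of deviations between -0.00306 and 0.168. Of the 4 Tbx5G125R animals, 2 correlated best with the Control animal of their own number. The members' median differed from that of the other lost regions by -0.32 to -0.09 under all alternatives. Of the 198 values for the 9 regions named singly, 18 moved by more than the SD between animals, all under a scale set to the table, and none changed sign. Of the 5 genes most like Slc8a1, 4 were among the 5 highest without Control animal 2 and 4 with no scaling.

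Depth limits single regions: the members held 3 to 48 reads per Tbx5G125R animal and 4 to 202 per Control animal. The scale between the genotypes cannot be checked from a table of changed regions alone.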
